A study of Mus musculus with 9 samples.

Results

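The genes examined here are the nuclear genes of oxidative phosphorylation: 52 genes that encode subunits of respiratory complexes I to IV and cytochrome c. Accessibility was read by ATAC-seq, in which a transposase cuts DNA that is not packed by nucleosomes or other proteins, so that reads pile up over open promoters and regulatory elements. A region of the deposited count table was assigned to a gene if it lay inside the gene's RefSeq GRCm38 span or within 20 kb of it and no other protein-coding gene was nearer. This gave 182 of the 157497 regions in the table. Regions within 1 kb of either end of the gene, 67 in number, were kept apart from the other 115, which lie deeper inside the genes or further outside them. The rule uses no measured value, but the gene set was chosen with earlier results of these data known. All 182 regions passed the filter on low counts.

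The 9 libraries are from mouse embryonic stem cells and form 3 groups of 3. All cells were grown without further treatment in medium with 10% serum and 1000 U/ml of LIF, the cytokine that maintains mouse embryonic stem cells, and were sorted as PECAM+ PDGFRA- before the nuclei were prepared. The NanogKO group lacks Nanog, a pluripotency transcription factor. NanogKO:Esrrb carries Esrrb in that background, and NanogKO:Esrrb:Nanog carries Esrrb and Nanog. Esrrb is an orphan nuclear receptor of the estrogen-related receptor (ERR) family that acts downstream of Nanog. The labels give the line of the first group as N{delta} and that of both other groups as N{delta}:cE:iN, and the sample titles add a different code to each group, 44C6, 44J and 44JN. Each of the 3 comparisons is thus also one between differently coded cells, and the genotype and the line or clone cannot be told apart. The sources used here do not say how Esrrb and Nanog were added or whether each group is 1 clone. The series design names 12 samples, of which 9 are analysed here.

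The respiratory chain passes electrons from NADH through complex I and from succinate through complex II to ubiquinone, then through complex III and the mobile carrier cytochrome c to complex IV, which reduces oxygen. Complexes I, III and IV pump protons, and the gradient drives ATP synthase. The mitochondrial genome encodes a few core subunits, and all others come from nuclear genes scattered over the chromosomes, many of which have CpG-rich promoters with sites for NRF1, ETS-family factors such as GABPA, YY1 and the ERR receptors. In somatic tissues ERR alpha and gamma are known activators of these genes. Mouse embryonic stem cells in the naive state use both glycolysis and respiration.

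RefSeq promoter sequence (GRCm38.p6, 250 bases before to 50 after each annotated start) was at hand for 42 of the 52 genes, as 44 promoters. The first set of sequences holds every match among them to AAGGTCA, the core that ERR receptors bind, since Esrrb is the factor added in these cells. Each is written 5′ to 3′ on the gene's strand with the core or its reverse complement in capitals.
Ndufs5: ttctcgagtgTGACCTTgctcaagtag
Ndufb2: gagcagcagtAAGGTCAgccaagagca
Ndufb4: cctgagcctgAAGGTCAgactcgagag
Sdhd: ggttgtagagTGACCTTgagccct
The cores begin at -228 in Ndufs5, -181 in Ndufb2, -55 in Ndufb4 and +37 in Sdhd relative to the annotated start. The Sdhd stretch, chr9:50603800-50603823 on the minus strand, is the only one of the 44 that extends to the full element TCAAGGTCA, which is 2.27% of these promoters beside 0.334% of all 21263 protein-coding promoters in the table. The core itself was in 9.09% of the members' promoters and in 4.08% of all.

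The next sequences are bases upstream of 3 starts, with NRF1 matches in capitals and bases inside a neighbouring gene left out. Ndufa9 and Cox7c are shown because their start regions rose with Esrrb, and they were chosen after their values were seen. Ndufa11 is shown for its NRF1 match, at the start region of highest CPM in complex I, which was called in no comparison; the called gene-end region of Ndufa11 lies 6.1 kb away and is not covered by these bases. The lines cover chr6:126849145-126849394 (minus strand), chr13:86046796-86047045 (minus strand) and chr17:56717700-56717761 (plus strand).
Ndufa9: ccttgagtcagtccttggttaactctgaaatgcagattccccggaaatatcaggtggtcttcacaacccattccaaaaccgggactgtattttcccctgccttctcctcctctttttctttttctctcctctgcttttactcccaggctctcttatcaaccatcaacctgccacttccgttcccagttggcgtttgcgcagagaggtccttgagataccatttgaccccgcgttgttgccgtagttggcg
Cox7c: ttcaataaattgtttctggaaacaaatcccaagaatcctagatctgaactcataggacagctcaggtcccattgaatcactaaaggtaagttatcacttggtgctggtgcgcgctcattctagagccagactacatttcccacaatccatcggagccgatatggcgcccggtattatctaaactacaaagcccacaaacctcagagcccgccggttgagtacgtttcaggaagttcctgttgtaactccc
Ndufa11: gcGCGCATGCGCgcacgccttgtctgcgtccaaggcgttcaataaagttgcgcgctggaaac
The Ndufa9 and Cox7c stretches hold no capitals: none of the letters searched for ERR, NRF1, GABPA or YY1 is in them. Ndufa9 does have a YY1 match just after its start, which it shares with 3 other complex I genes, Ndufs4, Ndufs6 and Ndufs7. It is printed here with that of Ndufs4, the gene with the most regions, with the motif in capitals.
Ndufa9 +30: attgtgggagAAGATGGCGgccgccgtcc
Ndufs4 +36: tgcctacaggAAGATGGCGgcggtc
No promoter entry was found for Ndufb9, whose gene-end region had the smallest p in both comparisons with NanogKO.

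Matches were searched on both strands, the longer motifs contain the shorter ones, and a match is a description of letters only. The NRF1 motif GCGCATGCG was in 11.4% of the members' promoters (Cox6a1, Cycs, Ndufa11, Ndufa8 and Uqcrc1) and in 2.35% of all promoters, and its looser form GCGCANGCG was in 31.8% and 8.58%. The YY1 motif AAGATGGCG was in 9.09% and 1.83%. Shares lay closer together for the ETS cores CCGGAAG (20.5% and 11.6%) and ACTTCCGG (6.82% and 5.15%), for the SP1 box GGGCGG (47.7% and 46.2%) and for CCAAT (34.1% and 38.2%). The members' promoters had a median GC content of 59.3%, against 56.3% over all, and a median of 20 CpG dinucleotides against 13.

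The libraries hold 35545030 to 58520948 counts in regions, and libraries of the same group correlated at 0.964 to 0.983 across regions. The share of counts in gene-end regions was 35.43% to 39.67%, with NanogKO:Esrrb:Nanog replicate 1 highest, and replicate 3 of that group stood apart from its 2 partners on the second principal component. Defining markers were checked by the summed CPM (counts scaled to a common library total after TMM normalisation) of their gene-end regions. The 11 undifferentiated ES cell genes, all with such a region, summed to 350 to 373 in NanogKO, 426 to 472 in NanogKO:Esrrb and 468 to 518 in NanogKO:Esrrb:Nanog. Primitive endoderm genes, 7 of 9 with a region (none for Gata4 and Dab2), summed to 242 to 255, 205 to 236 and 227 to 243. Neural genes (6 of 6) summed to 209 to 230, 184 to 204 and 222 to 250, mesendoderm genes (5 of 5) to 155 to 170, 137 to 150 and 148 to 157, and fibroblast genes (5 of 6, none for Postn) to 87.4 to 98.2, 89.7 to 94.6 and 100 to 113. With Esrrb the ES cell sums thus lay above those of NanogKO, and the primitive endoderm, neural and mesendoderm sums below them, without overlap. With both factors the ES cell and fibroblast sums lay above those of NanogKO without overlap. When Nanog was added the neural and fibroblast sums lay higher without overlap. Over all gene-end regions of the table the median log2 fold changes were -0.07, 0.05 and 0.12 in these 3 comparisons. Libraries of the groups did not overlap in 40.6%, 39.6% and 30.4% of those regions, taken singly and not as sums. Shifts of the marker sums were not set apart from these table-wide shifts. The part of these markers in the results below was not tested. In bulk chromatin, a smaller share of cells with a region open and less opening per cell cannot be told apart.

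Starts of these genes were among the more open regions of the table. Of the 67 gene-end regions, 40 overlapped the annotated start, and the start regions of Cox5a and Cox7a2, which lie inside the gene span 3708 and 4141 bp from its nearer end, bring the number of start regions to 42. Their median level was 30.0 CPM per kb of region, beside 22.3 for all 11803 start regions of the table. Each of the 42 had a peak in the deposited lists of NanogKO and of NanogKO:Esrrb, and the share over all start regions was not counted. The other member regions had a median of 9.79 CPM per kb, beside 8.79 for all regions of that kind. Among gene-end regions the medians per kb were 26.1 CPM for complex I, 27.7 for complex II, 23.9 for complex III and 20.7 for complex IV, and the single Cycs region had 32.3.

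**Figure D1:**
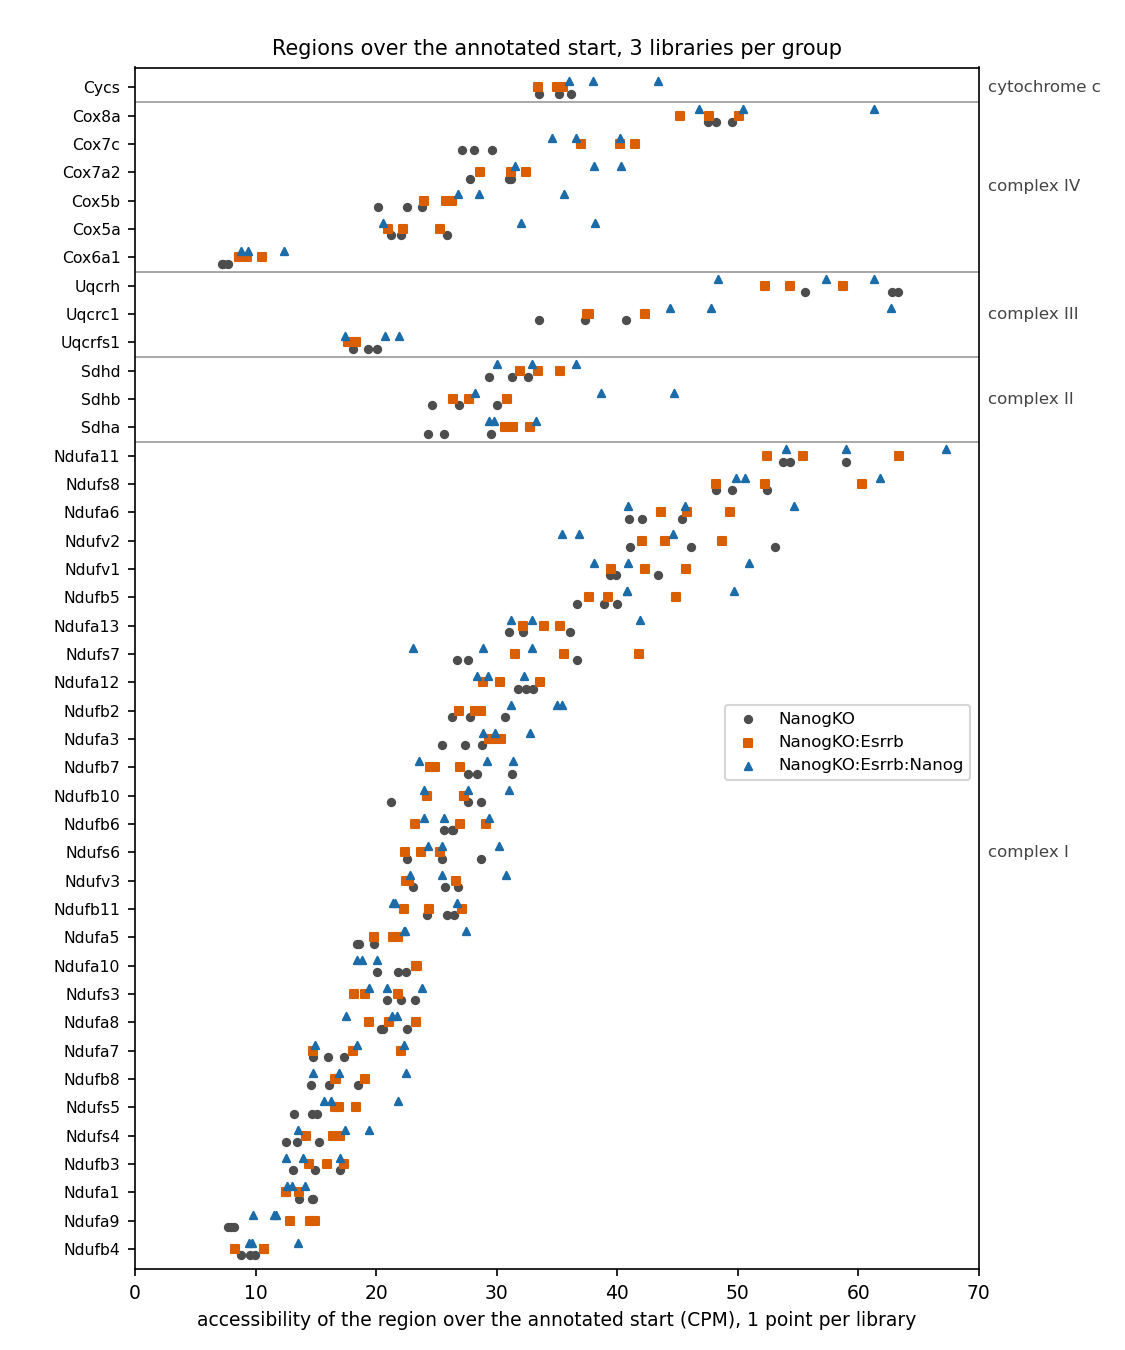
Accessibility of the 42 regions over an annotated start (horizontal axis, CPM), with 1 point per library and a row per gene, ordered by level within each complex. Groups overlap in most rows, and the NanogKO points of Ndufa9, Cox7c and Cox6a1 sit left of all others.

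At starts, few regions differed between NanogKO:Esrrb and NanogKO, a comparison written below as with Esrrb. That of NanogKO:Esrrb:Nanog with NanogKO is written as with both factors, and that of the groups with Esrrb as when Nanog was added. Of the 42, 2 rose in NanogKO:Esrrb over NanogKO (Ndufa9 and Cox7c) and none fell, 4.76% of them, beside 18.3% of all start regions of the table (percent called, 4.91% higher and 13.4% lower). In NanogKO:Esrrb:Nanog over NanogKO 11 rose and none fell, 26.2%, beside 30.2% (19.3% higher and 10.9% lower). When Nanog was added to Esrrb, 2 rose (Sdhb and Uqcrc1) and 1 fell (Ndufa9), 7.14%, beside 20.7% (17.7% higher and 3.03% lower). The 40 start regions not called in the first comparison had log2 fold changes of -0.19 to 0.35, against standard errors of 0.11 to 0.15. A region was called at an adjusted p under 0.05 in edgeR's quasi-likelihood F test over all 157439 tested regions, and a region that was not called is not thereby shown to be equal between groups. The comparisons share libraries and are given side by side.

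These start counts depend on single libraries and on the scaling. Without NanogKO:Esrrb:Nanog replicate 1, the 11 became 5 (4 higher, 1 lower), and without NanogKO replicate 2 they became 6. With library totals alone the 11 split into 7 higher and 2 lower. The 3 calls of the last comparison became 0 without NanogKO:Esrrb replicate 2, 1 without NanogKO:Esrrb:Nanog replicate 1 and 8 without replicate 3 of that group. They were 1 higher and 4 lower when scaled on gene-end regions or on library totals, and 4 higher and 3 lower with the replicate number as a block. With that block the first comparison had 5 called start regions.

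Over all gene-end regions, Esrrb went with 6 higher and 4 lower of 67, which is 14.9% beside 22.2% of the 22957 tested gene-end regions (8.39% higher, 13.8% lower). Their median log2 fold change was 0.06, and it was -0.07 over all gene-end regions. In NanogKO:Esrrb:Nanog over NanogKO 14 rose and 5 fell, 28.4% beside 34.1% (20.2% higher, 13.9% lower), with a median of 0.11 beside 0.05. Between NanogKO:Esrrb:Nanog and NanogKO:Esrrb 4 rose and 3 fell, 10.4% beside 20.1% (15.5% higher, 4.61% lower), with a median of 0.04 beside 0.12. Scaled on gene-end regions the splits were 11 to 4, 12 to 8 and 2 to 8, and on library totals 8 to 4, 10 to 9 and 2 to 8. The replicate block gave 5 higher and 6 lower in the last comparison. Its 7 calls became 2 without NanogKO:Esrrb replicate 2, 4 without NanogKO:Esrrb:Nanog replicate 1 or 2, and 11 without replicate 3 of that group. The libraries of the groups compared did not overlap in 17, 20 and 15 of the 67 in the 3 comparisons, beside 40.6%, 39.6% and 30.4% of all gene-end regions. Of the 67 regions, 45 were called in none of the 3, and the share of all gene-end regions called in none was not counted.

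Regions away from the gene ends differed more often, as they did across the table. Of the 115, 30 rose and 10 fell with Esrrb, 34.8% beside 38.3% of the 97043 such regions within 20 kb of any protein-coding gene (21.1% higher, 17.2% lower). In NanogKO:Esrrb:Nanog over NanogKO 43 rose and 19 fell, 53.9% beside 50.5% (25.8% higher, 24.7% lower). When Nanog was added to Esrrb 17 rose and 19 fell, 31.3% beside 24.5% (12.6% higher, 11.9% lower), and this split was 6 to 23 when scaled on gene-end regions and 10 to 23 on library totals. The medians were 0.09, 0.18 and 0.06 on the log2 scale, beside 0.01, -0.01 and -0.02 over all such regions. Libraries did not overlap in 61, 66 and 56 of the 115, beside 52.9%, 56.1% and 38.4%. The 36 calls of the last comparison became 21 without NanogKO:Esrrb replicate 1, 22 without its replicate 3 and 21 without NanogKO:Esrrb:Nanog replicate 2.

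**Figure D2:**
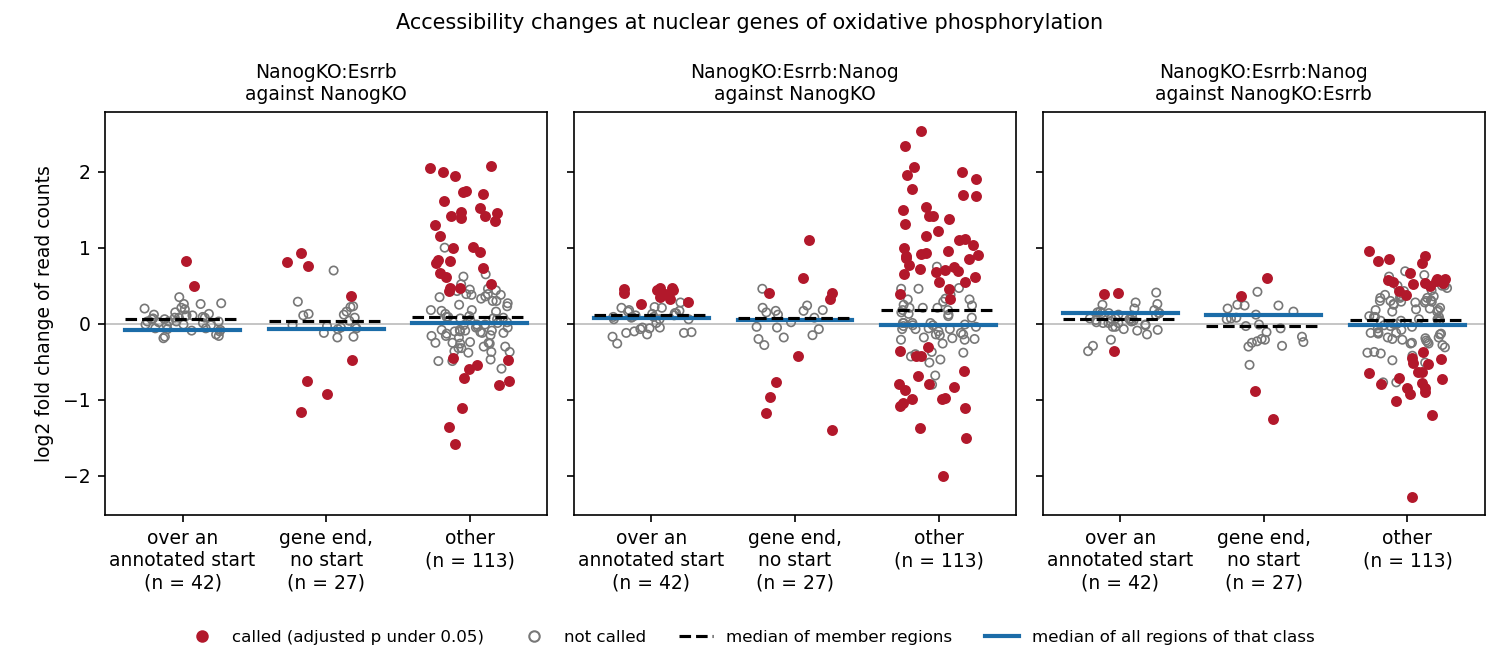
Log2 fold changes (vertical axis) in the 3 comparisons of the 42 start regions, the remaining gene-end regions and the remaining other regions, 1 point per region, filled where called. The members' median is dashed and that of all regions of the class is a solid line. For the remaining gene-end regions the solid line is the median of all gene-end regions, those over a start included. Start regions lie close to 0, between -0.36 and 0.83, and the other regions spread from -2.27 to 2.54.

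Sums over the members were also formed per library. Summed over gene-end regions, the libraries had 1534.4, 1435.3 and 1440.5 CPM in NanogKO, 1622.1, 1463.2 and 1470.0 in NanogKO:Esrrb, then 1741.3, 1527.7 and 1438.5 in NanogKO:Esrrb:Nanog. Replicate 1 was the highest of its group in each, and all 3 groups overlapped. Over the other regions the sums were 529.6, 529.0 and 513.1, then 566.1, 583.0 and 540.2, then 607.8, 581.9 and 589.7, so that every NanogKO library lay below the rest. Complex IV was the one complex whose gene-end sums in NanogKO (136.1, 136.5 and 134.8) lay below all libraries of NanogKO:Esrrb (164.6, 152.0 and 150.9) and of NanogKO:Esrrb:Nanog (186.5, 155.4 and 148.1). That sum leaves out Cox5a and Cox7a2, which have no gene-end region. Complex II came close to the same order: its highest NanogKO library (102.4) lay just above its lowest NanogKO:Esrrb library (102.2).

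Complex I takes up 42 of the gene-end regions. Of these, 2 rose and 4 fell with Esrrb, 7 rose and 4 fell in NanogKO:Esrrb:Nanog over NanogKO, and 2 rose and 2 fell between the groups with Esrrb. The shares called were 14.3%, 26.2% and 9.52%, beside 22.2%, 34.1% and 20.1% of all gene-end regions. The core subunits include those that carry the flavin and the iron-sulfur clusters. None of their 6 gene-end regions was called in any comparison, and 6 regions are few to read against the shares over all gene-end regions. Of the 11 other regions of core subunits, 6 of them at Ndufs1, 6 rose and 1 fell with Esrrb (63.6%, beside 38.3% over all such regions), 6 rose and 2 fell with both factors (72.7%, beside 50.5%), and 1 fell when Nanog was added (9.09%, beside 24.5%). These 11 are few, and those of Ndufs1 share 1 locus. Of all 82 other regions of complex I genes, 26 rose and 7 fell with Esrrb, and 33 rose and 13 fell with both factors. When Nanog was added 12 rose and 14 fell. The shares called of the 82 were 40.2%, 56.1% and 31.7%. Ndufa11, a membrane-arm subunit that stabilises the complex, had the gene-end region of highest CPM in complex I, not corrected for length, at its start (tied with the neighbouring gene Vmac). It read 59.0, 53.8 and 54.3 CPM in NanogKO, 63.4, 52.4 and 55.4 in NanogKO:Esrrb, then 67.3, 59.0 and 54.0 in NanogKO:Esrrb:Nanog, with overlap throughout. The start region of Ndufb6, another membrane-arm subunit, is an example of the many that stayed near 0, with log2 fold changes of 0.02, 0.01 and -0.01 in the 3 comparisons.

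With Esrrb, 5 of the 6 called gene-end regions of complex I did not overlap an annotated start or belonged to a gene without a known strand, and Ndufa9 was the exception. The region chr15:58938719-58939367 at one end of Ndufb9, a membrane-arm subunit, had 7.05, 7.0 and 7.4 CPM in NanogKO, 3.5, 2.71 and 3.41 in NanogKO:Esrrb, then 2.99, 2.17 and 2.91 in NanogKO:Esrrb:Nanog. All 6 libraries with Esrrb lay below the 3 without, and the 2 groups with Esrrb overlapped. It fell by 1.16 ± 0.16 (SE, adjusted p = 3.1e-06) on the log2 scale with Esrrb and by 1.40 ± 0.17 (adjusted p = 1.2e-07) with Esrrb and Nanog. The region at the opposite end of Ndufb9, tied with Tatdn1, had 16.8 to 18.7 CPM in NanogKO, 17.3 to 19.7 in NanogKO:Esrrb and 20.6 to 25.3 in NanogKO:Esrrb:Nanog. That region rose by 0.41 ± 0.12 in NanogKO:Esrrb:Nanog over NanogKO (adjusted p = 0.0049). Over NanogKO:Esrrb the change was 0.36 ± 0.12 (adjusted p = 0.023), a call that ended under either other scaling and without any 1 of 4 libraries (NanogKO:Esrrb replicates 2 and 3, NanogKO:Esrrb:Nanog replicates 1 and 2).

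At Ndufv3, a small flavoprotein-arm subunit, the gene-end region chr17:31531392-31532048 held 5.17, 4.98 and 5.31 CPM in NanogKO, 11.0, 10.2 and 8.3 in NanogKO:Esrrb, then 12.2, 10.2 and 10.6 in NanogKO:Esrrb:Nanog. It rose by 0.93 ± 0.14 (adjusted p = 6.5e-06) and 1.10 ± 0.14 (adjusted p = 3e-07) over NanogKO, with no overlap in either case. Ndufa13, also known as GRIM-19 and reported as a partner of STAT3, went the other way at chr8:69894875-69895192, with 4.15, 4.26 and 3.79 CPM, then 2.11, 2.5 and 1.83, then 1.89, 1.29 and 2.16. The decreases were -0.92 ± 0.20 (adjusted p = 0.00053) and -1.17 ± 0.20 (adjusted p = 2.7e-05), again without overlap. The start of Ndufa13 itself was not called.

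A region near the far end of Ndufa11, chr17:56723662-56724009, was lowest in NanogKO:Esrrb. Its libraries read 7.85, 7.95 and 7.91 CPM in NanogKO, 5.05, 4.35 and 4.73 in NanogKO:Esrrb, then 6.93, 7.95 and 6.57 in NanogKO:Esrrb:Nanog. It fell with Esrrb by 0.75 ± 0.14 (adjusted p = 0.00012), was 0.60 ± 0.14 higher in NanogKO:Esrrb:Nanog than in NanogKO:Esrrb (adjusted p = 0.0033), and differed by -0.15 between NanogKO:Esrrb:Nanog and NanogKO (adjusted p = 0.39). Ndufb10 has a gene-end region that does not overlap its start, chr17:24722316-24722909, which was called lower over NanogKO in both groups (-0.48 and -0.42), but its libraries overlapped, and leaving out NanogKO replicate 1, NanogKO replicate 3 or NanogKO:Esrrb replicate 2 ended the call with Esrrb. Other lower calls were the small region chr17:33837380-33837529 of Ndufa7, -0.96 over NanogKO and -1.25 ± 0.34 over NanogKO:Esrrb (adjusted p = 0.0094).

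Ndufa9, an accessory subunit at the junction of the matrix and membrane arms, has 11 regions. Its start region, chr6:126848544-126849674, lies over the sequence printed above and held 7.73, 8.19 and 7.93 CPM in NanogKO. NanogKO:Esrrb had 14.5, 14.9 and 12.9, and NanogKO:Esrrb:Nanog had 9.75, 11.7 and 11.5. The 3 groups did not overlap, with NanogKO lowest and NanogKO:Esrrb highest. It rose by 0.83 ± 0.13 (adjusted p = 8.1e-06) with Esrrb and by 0.47 ± 0.13 (adjusted p = 0.0033) with Esrrb and Nanog. With Nanog added to Esrrb it fell by 0.36 ± 0.12 (adjusted p = 0.035), a call that ended without NanogKO:Esrrb replicate 1 or 2 or NanogKO:Esrrb:Nanog replicate 1.

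Of the 11 Ndufa9 regions, 10 rose with Esrrb and none fell, 9 rose with Esrrb and Nanog, and 5 fell between the groups with Esrrb, with median log2 fold changes of 1.41, 0.93 and -0.46. They share 1 locus and are not independent of each other. Of the 10 away from the gene ends, 90%, 80% and 40% were called, beside 38.3%, 50.5% and 24.5% over all such regions. The region 41.1 kb downstream of the start, chr6:126807563-126808562, had 2.46, 2.2 and 2.8 CPM in NanogKO, 8.96, 12.3 and 8.52 in NanogKO:Esrrb, then 6.37, 8.16 and 7.23 in NanogKO:Esrrb:Nanog. It rose by 2.00 ± 0.17 (adjusted p = 7.5e-10) and by 1.54 ± 0.17 (adjusted p = 2.5e-08) over NanogKO, and fell by 0.46 ± 0.16 (adjusted p = 0.033) when Nanog was added. It had a peak in the deposited list of NanogKO:Esrrb and none in that of NanogKO. The region 46.1 kb downstream had its highest level in NanogKO:Esrrb:Nanog (13.0, 9.74 and 9.37 CPM, against 7.71, 8.84 and 8.19 in NanogKO:Esrrb), and NanogKO held 3.0, 3.45 and 3.59. The region 42.1 kb downstream was called in none. The 5 lower calls became 3 without NanogKO:Esrrb replicate 1, and 1 without its replicate 2 or without NanogKO:Esrrb:Nanog replicate 1.

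**Figure D3:**
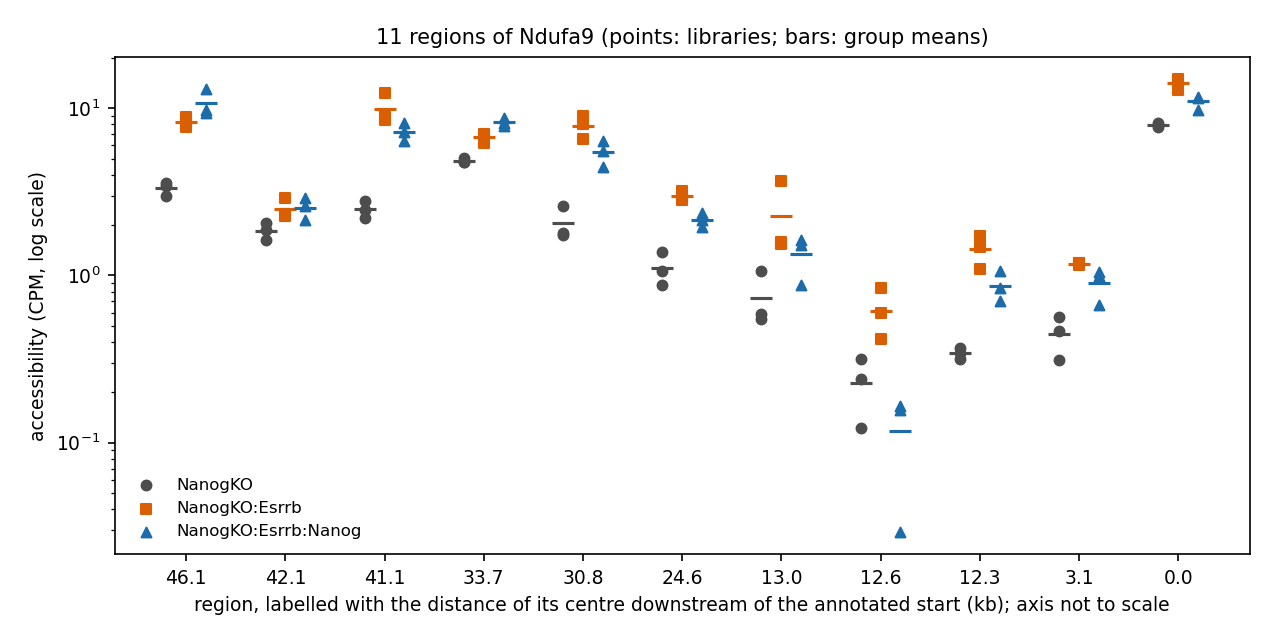
Accessibility (vertical axis, CPM, log scale) of the 11 Ndufa9 regions in genomic order (horizontal axis, labelled in kb downstream of the annotated start, not to scale), with 1 point per library and a bar at each group mean. By group mean, NanogKO lies lowest in all regions but that at 12.6 kb, and NanogKO:Esrrb lies highest in all but those at 33.7, 42.1 and 46.1 kb. Libraries of NanogKO and NanogKO:Esrrb:Nanog overlap at 12.6 and 13.0 kb.

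Ndufs4, an accessory subunit near the NADH-oxidising tip whose loss in mice causes a Leigh-like encephalopathy, has the most regions, 24, and these did not move together. With Esrrb 4 rose and 1 fell, with Esrrb and Nanog 7 rose and 3 fell, and between the groups with Esrrb 4 rose and 4 fell. Of its 23 regions away from the gene ends, 21.7%, 43.5% and 34.8% were called, beside 38.3%, 50.5% and 24.5% over all such regions. Its start held 12.5, 15.3 and 13.4 CPM, then 14.2, 16.4 and 17.0, then 17.4, 19.4 and 13.5, and was not called. Inside the gene, 77.4 kb from the start, the region chr13:114310522-114310924 had 2.19, 2.37 and 2.72 CPM in NanogKO, 7.43, 7.79 and 9.1 in NanogKO:Esrrb, then 9.29, 8.86 and 9.11 in NanogKO:Esrrb:Nanog. The NanogKO libraries lay apart below the rest, and the rises were 1.74 ± 0.15 (adjusted p = 1.3e-09) and 1.90 ± 0.15 (adjusted p = 8.2e-11).

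An opposite pattern lay 11.4 kb from the Ndufs4 start, at chr13:114376551-114376882. That region had 4.41, 5.79 and 5.27 CPM in NanogKO, 1.67, 1.51 and 2.0 in NanogKO:Esrrb, then 1.2, 1.44 and 1.26 in NanogKO:Esrrb:Nanog. It fell by 1.58 ± 0.19 (adjusted p = 2.4e-07) and by 2.00 ± 0.20 (adjusted p = 4.2e-09), and here NanogKO lay apart above the rest. A further region, 83.4 kb from the start at chr13:114304264-114305061, was lowest in NanogKO:Esrrb:Nanog, with 4.08, 4.22 and 3.93 CPM against 8.63, 8.32 and 6.91 in NanogKO and 7.15, 7.64 and 6.33 in NanogKO:Esrrb. Its log2 fold changes were -0.97 ± 0.15 over NanogKO (adjusted p = 4.6e-06) and -0.79 ± 0.15 over NanogKO:Esrrb (adjusted p = 0.00042).

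**Figure D4:**
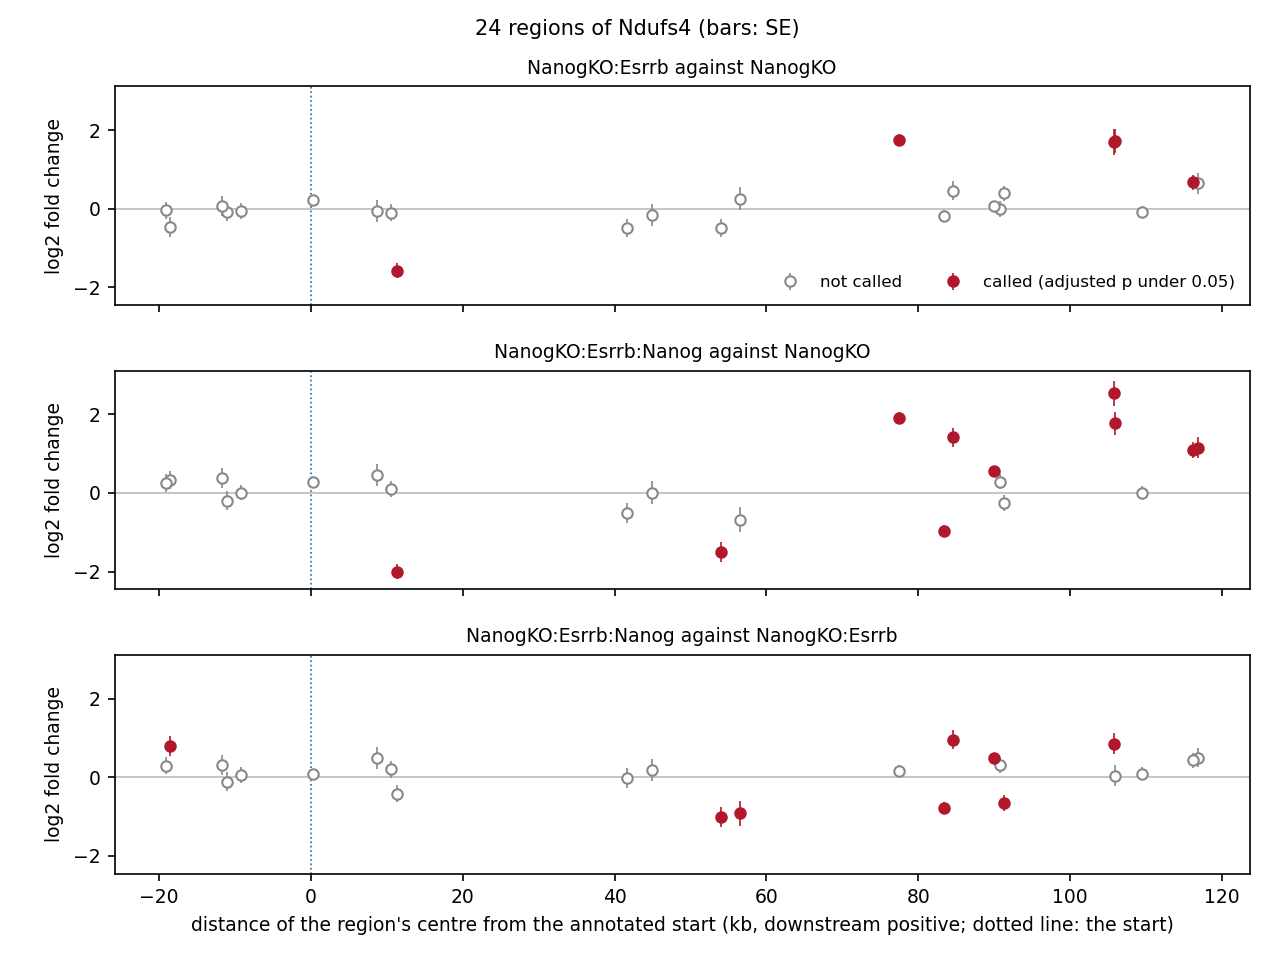
Log2 fold change with its SE (vertical axis) of the 24 Ndufs4 regions by distance from the annotated start (horizontal axis, kb, downstream positive) in the 3 comparisons, filled where called. The start stays near 0 in each, and the regions at 77.4 and 11.4 kb moved in opposite directions in both comparisons with NanogKO.

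Elsewhere in complex I, the region with the smallest p lay 2.9 kb upstream of the start of Ndufv2, a core subunit with an iron-sulfur cluster, at chr17:66104278-66104566. It held 1.63, 1.49 and 1.58 CPM in NanogKO, 7.09, 6.83 and 5.95 in NanogKO:Esrrb, then 7.78, 7.92 and 8.04 in NanogKO:Esrrb:Nanog. All 3 groups were apart, and the rises over NanogKO were 2.08 ± 0.16 (adjusted p = 1.5e-10) and 2.34 ± 0.16 (adjusted p = 5.5e-12). This region too had a peak in the NanogKO:Esrrb list and none in the NanogKO list, and the Ndufv2 start was not called. Inside Ndufb4, 2.8 kb from the start whose ERR core is printed above, chr16:37651387-37651814 had 2.98, 2.42 and 3.16 CPM, then 8.31, 8.66 and 7.48, then 11.2, 11.1 and 10.6. It rose by 1.52 ± 0.15 (adjusted p = 7.4e-09) with Esrrb, by 1.95 ± 0.15 (adjusted p = 3e-11) with both factors, and by 0.43 ± 0.14 (adjusted p = 0.022) when Nanog was added. Without the regions of Ndufa9 and Ndufs4, the remaining 82 other regions of the 52 genes had 17 higher and 9 lower with Esrrb, 28 and 16 with both factors, and 13 and 11 when Nanog was added. These are 31.7%, 53.7% and 29.3%, beside 38.3%, 50.5% and 24.5% over all such regions.

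Complex II, which oxidises succinate and is also an enzyme of the TCA cycle, has 4 genes. Of its 5 gene-end regions none was called with Esrrb, 2 rose in NanogKO:Esrrb:Nanog over NanogKO, and 1 rose over NanogKO:Esrrb. These are 0%, 40% and 20%, of 5 regions only, beside 22.2%, 34.1% and 20.1% of all gene-end regions. Of its 11 other regions, 3 rose and 2 fell, 6 rose and 2 fell, and 3 rose and none fell in the same order. The shares called were 45.5%, 72.7% and 27.3%, of 11 regions only, beside 38.3%, 50.5% and 24.5% over all such regions. The start of Sdhb, the iron-sulfur subunit, had 30.0, 24.6 and 26.9 CPM in NanogKO, 30.9, 26.4 and 27.7 in NanogKO:Esrrb, then 44.7, 38.7 and 28.2 in NanogKO:Esrrb:Nanog. Replicate 3 of the last group lay within the range of the others, so the groups overlapped. Its log2 fold change of 0.45 ± 0.13 over NanogKO (adjusted p = 0.0066) was 0.30 without replicate 1 of that group (adjusted p = 0.069). Over NanogKO:Esrrb it was 0.39 ± 0.13 (adjusted p = 0.033), and that call ended under either other scaling and without NanogKO:Esrrb replicate 2 or 3 or NanogKO:Esrrb:Nanog replicate 1 or 2.

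Both membrane anchors of complex II had a region inside the gene that rose. In Sdhc, chr1:171137599-171138090 had 2.22, 1.76 and 2.62 CPM in NanogKO, 5.76, 6.1 and 5.36 in NanogKO:Esrrb, then 9.37, 9.15 and 8.89 in NanogKO:Esrrb:Nanog. The 3 groups were apart and in that order, with changes of 1.39 ± 0.16 (adjusted p = 1.6e-07), 2.06 ± 0.16 (adjusted p = 6.6e-11) and 0.67 ± 0.15 (adjusted p = 0.0021). In Sdhd, 1.5 kb from the start, chr9:50602204-50602412 had 2.15, 2.59 and 1.84 CPM, then 3.78, 5.38 and 3.48, then 6.34, 4.72 and 4.25, and rose by 0.94 ± 0.20 (adjusted p = 0.00054) and 1.22 ± 0.20 (adjusted p = 1.5e-05) over NanogKO. The groups with Esrrb overlapped there. Sdhd has 2 regions away from its ends, and the second was called lower in both comparisons with NanogKO. The Sdhd start, with the single full ERR element, had log2 fold changes of 0.11, 0.09 and -0.02 and was not called.

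Complex III has 11 gene-end regions, of which 2 rose with Esrrb, 2 rose and 1 fell with both factors, and 1 rose and 1 fell when Nanog was added. These are 18.2%, 27.3% and 18.2%, beside 22.2%, 34.1% and 20.1% of all gene-end regions. The start of Uqcrh, the hinge protein near cytochrome c1, had the highest CPM, not corrected for length, with 62.8, 63.3 and 55.6 CPM in NanogKO, 58.7, 54.3 and 52.3 in NanogKO:Esrrb, then 61.3, 57.3 and 48.4 in NanogKO:Esrrb:Nanog, and was not called. Uqcrc1, a core protein of the matrix side, had 40.7, 33.5 and 37.3 CPM at its start, then 42.3, 37.7 and 37.5, then 62.7, 47.8 and 44.4, with all NanogKO:Esrrb:Nanog libraries above the rest. The rises were 0.47 ± 0.12 over NanogKO (adjusted p = 0.0025) and 0.40 ± 0.12 over NanogKO:Esrrb (adjusted p = 0.021), the second of which ended without NanogKO:Esrrb replicate 2 or 3 or NanogKO:Esrrb:Nanog replicate 1. Both gene-end calls with Esrrb in this complex were weak regions of Uqcrc1 that do not overlap its start: chr9:108949711-108950401, at 1.59 to 2.39 CPM in NanogKO and 3.27 to 4.1 in NanogKO:Esrrb, rose by 0.81 ± 0.23 (adjusted p = 0.0056). The lower gene-end calls were both at chr4:116067834-116068079 of Uqcrh, where the change over NanogKO:Esrrb was -0.88 ± 0.27 (adjusted p = 0.017), a call that ended without NanogKO:Esrrb replicate 2 or NanogKO:Esrrb:Nanog replicate 2. Of the 6 other regions of complex III genes, 1 rose with Esrrb, 1 rose and 1 fell with both factors, and 2 fell when Nanog was added. These are 16.7%, 33.3% and 33.3%, of 6 regions only, beside 38.3%, 50.5% and 24.5% over all such regions.

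Cycs, which encodes the somatic cytochrome c, had 36.2, 33.5 and 35.2 CPM at its start in NanogKO, 35.0, 33.4 and 35.5 in NanogKO:Esrrb, then 43.4, 38.0 and 36.0 in NanogKO:Esrrb:Nanog. Its log2 fold changes were -0.01, 0.16 and 0.18, none of them called. Neither of its regions was called in any comparison. The same held for all regions of 10 further genes: Ndufs3, Ndufs8, Ndufv1, Ndufa1, Ndufa3, Ndufb8 and Ndufb11 of complex I, Cyc1 and Uqcrfs1 of complex III, and Cox8a of complex IV. How many genes of the whole table have no called region was not counted.

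Among complex IV genes, whose nuclear subunits surround the catalytic core made in the mitochondrion, 2 of 8 gene-end regions rose with Esrrb, 3 with both factors and none when Nanog was added, and none fell. These are 25%, 37.5% and 0%, and the first 2 are near the 22.2% and 34.1% of all gene-end regions (20.1% for the last comparison). Cox7c had 27.1, 28.1 and 29.6 CPM at its start (chr13:86046217-86046972, over the printed sequence) in NanogKO, 41.5, 37.0 and 40.2 in NanogKO:Esrrb, then 40.2, 34.6 and 36.6 in NanogKO:Esrrb:Nanog. The NanogKO libraries lay below all others, which overlapped, and the rises were 0.49 ± 0.11 (adjusted p = 0.00083) and 0.40 ± 0.11 (adjusted p = 0.0037). The Cox6c region chr15:35937270-35938265 rose with Esrrb by 0.37 ± 0.12 (adjusted p = 0.018), where NanogKO held 9.35 to 10.5 CPM and NanogKO:Esrrb 12.3 to 14.3, and the call ended without NanogKO replicate 3 or NanogKO:Esrrb replicate 1. Cox5b, a peripheral zinc-binding subunit, had 20.2 to 23.8 CPM in NanogKO and 26.8 to 35.6 in NanogKO:Esrrb:Nanog at its start, a rise of 0.45 ± 0.12 (adjusted p = 0.0027). Cox6a1 rose by 0.46 ± 0.14 (adjusted p = 0.009) between the same groups, where NanogKO held 7.19 to 7.7 CPM and NanogKO:Esrrb:Nanog 8.77 to 12.4. The change was 0.29 without NanogKO:Esrrb:Nanog replicate 1 (adjusted p = 0.11, no call).

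Of the 15 other regions of complex IV genes, none rose and 1 fell with Esrrb, 3 rose and 3 fell with both factors, and 2 rose and 3 fell when Nanog was added. These are 6.67%, 40% and 33.3%, beside 38.3%, 50.5% and 24.5% over all such regions. The decrease of smallest p over NanogKO was at Cox7c, chr13:86035963-86036451, with 3.9, 4.46 and 4.3 CPM in NanogKO, 3.48, 3.42 and 3.72 in NanogKO:Esrrb, then 1.33, 2.0 and 2.52 in NanogKO:Esrrb:Nanog. It fell by 1.11 ± 0.20 over NanogKO (adjusted p = 4.4e-05) and by 0.85 ± 0.20 over NanogKO:Esrrb (adjusted p = 0.0032), so the start and a distal region of the same gene moved in opposite directions over NanogKO. At Cox4i1, chr8:120671779-120672280 fell by 0.75 with Esrrb and rose by 0.82 ± 0.18 when Nanog was added (adjusted p = 0.0018). Ndufb5 of complex I had a similar region at chr3:32762656-32763342, with -0.71 and then 0.89 ± 0.19 (adjusted p = 0.0013).

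**Figure D5:**
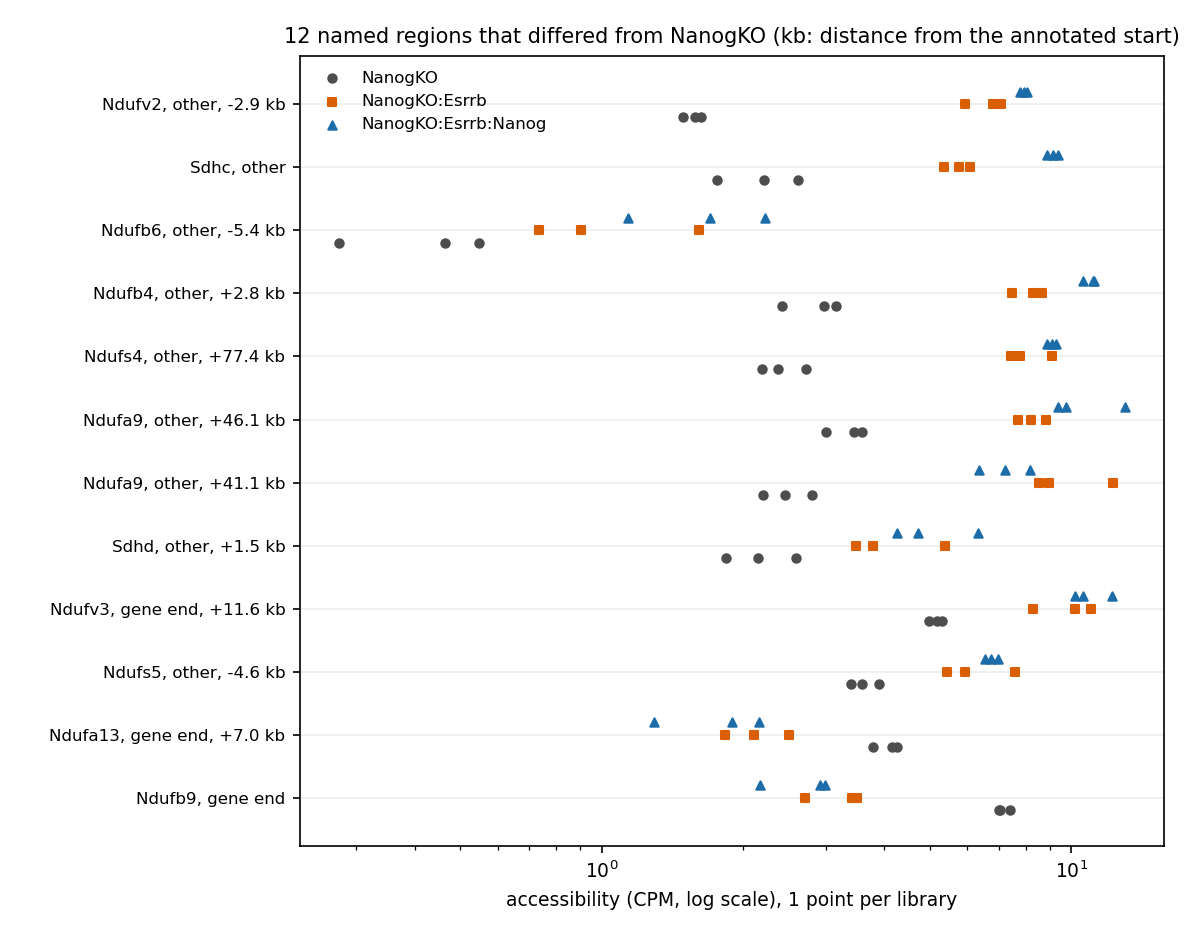
Accessibility of 12 named regions that differed from NanogKO (horizontal axis, CPM, log scale), 1 point per library, with the distance from the annotated start where the strand is known. They are the called regions of smallest p (at most 1 per gene, kind and comparison) with the larger log2 fold changes over NanogKO. Other large changes are left out by that choice, such as the fall at Ndufs4 11.4 kb from its start, so rises and falls cannot be weighed from this figure. NanogKO lies left of the other groups for the regions of Ndufv2, Sdhc, Ndufb4, Ndufs4 and Ndufa9, and right of them for the gene ends of Ndufa13 and Ndufb9.

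Start regions were also read against the printed motifs. Of the 4 start regions with an ERR core, none was called with Esrrb, and 2 (Ndufb2 and Ndufs5) rose in NanogKO:Esrrb:Nanog over NanogKO, with 0.26 ± 0.11 (adjusted p = 0.05, below the threshold before rounding) and 0.33 ± 0.13 (adjusted p = 0.035). Of the 5 with the full NRF1 motif, none was called with Esrrb and 2 (Cox6a1 and Uqcrc1) rose with both factors. Among the 38 without an ERR core, 2 rose with Esrrb and 9 with both factors, as did 2 and 9 of the 37 without the NRF1 motif. Of the 4 with the YY1 motif, Ndufa9 alone was called, in all 3 comparisons. Among the 38 without it, 1 rose with Esrrb, 10 with both factors and 2 when Nanog was added. The shares called over all start regions of the table were 18.3%, 30.2% and 20.7%. Sets of 4 or 5 regions are few to read against these shares. Medians with Esrrb were 0.09 for start regions with an ERR core and 0.05 for those without, and no test was made of that difference.

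The deposited peak lists read the same libraries in another way. Of the 115 other regions, 76 overlapped a peak of the NanogKO list and 97 a peak of the NanogKO:Esrrb list. The shares with a peak over all such regions of the table were not counted. Among the 30 that rose with Esrrb, 15 had a peak in the NanogKO:Esrrb list and not in that of NanogKO, and none had the reverse. Among the 10 that fell, 2 had a peak in the NanogKO list and not in that of NanogKO:Esrrb. Calls and peaks come from the same libraries, so these directions were largely set in advance and add no separate support. The third list is labelled as NanogKO:Esrrb:Nanog, but its peaks carry the names of 1 NanogKO:Esrrb library, so no count from it is given here.

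Genes around the chain were counted by the same rule, with gene-end regions given first. For some lists the region of smallest p is named, whether at a gene end or not. Of ATP synthase, 4 of 32 gene-end regions rose with Esrrb and none fell, and 7 rose and none fell with both factors, 12.5% and 21.9%, which are below the 22.2% and 34.1% called over all gene-end regions. Atpif1, the inhibitor of that enzyme, had the region of smallest p, which lies 5452 bp outside the gene and rose by 0.99 ± 0.12 and 1.03. Of assembly factors, 2 rose and 1 fell of 53 with Esrrb, then 10 and 1 with both (5.66% and 20.8%). Of 38 tested gene-end regions of the regulators, 5 rose and none fell, then 11 and 1 (13.2% and 31.6%). A region 19063 bp outside Nrf1, which encodes the factor of the motif above, rose by 1.59 ± 0.13 and 1.84 ± 0.13. Of the other regions, 35.1% for ATP synthase and 37.7% for the regulators were called with Esrrb, beside 38.3% over all such regions. With both factors these shares were 45.9% and 44.2%, beside 50.5%. Tissue isoforms had 2 higher and 3 lower of 11, then 3 and 4 (45.5% and 63.6%, above the shares over all gene-end regions, of 11 regions only).

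Glycolysis genes had 4 higher and 1 lower of 47 gene-end regions with Esrrb and 12 and 5 with both factors, TCA cycle genes 4 and 2 of 23, then 7 and 3, and mitochondrial ribosome genes 8 and 3 of 57, then 14 and 6. The shares called were 10.6% and 36.2%, 26.1% and 43.5%, and 19.3% and 35.1%, beside 22.2% and 34.1% over all gene-end regions. Among other regions, glycolysis genes had 68 higher and 17 lower of 190 with Esrrb, beside 30 and 10 of 115 for the respiratory chain. TCA cycle genes had 18 and 8 of 69, and mitochondrial ribosome genes 17 and 18 of 81. These are 44.7% for glycolysis, 34.8% for the respiratory chain, 37.7% and 43.2%, near the 38.3% over all such regions (21.1% higher, 17.2% lower). The region of smallest p for glycolysis was at Hk1 in both comparisons with NanogKO (2.07 ± 0.16 and 2.53 ± 0.16). For the TCA cycle it was a higher region at Sucla2 with Esrrb (2.23 ± 0.17) and a lower one at Suclg2 with both factors (-3.57 ± 0.28). No difference between lists was tested.

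Regions at the borders of the rule were as follows. The outermost region counted, 19964 bp from Ndufa12, had log2 fold changes of 0.73, -0.18 and -0.90, and the nearest one left out, 20324 bp from Ndufb3, had -0.84, -1.97 and -1.14. At the 1 kb border, the last gene-end region (Cox6a1, 949 bp) had 0.11, 0.08 and -0.03, and the first other region (Uqcrq, 1109 bp) had 0.62, 0.92 and 0.30. Of the gene-end regions, 21 lie as close to another gene as to the member, so their level may belong to either.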

How the data were processed

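ATAC-seq counts per region and 3 peak lists, 1 per group, were deposited by the authors. The counts are raw counts, and the score of each peak in the lists is the authors' deposited value, not used for any comparison. Processing used cutadapt, Bowtie2, MACS2 2.2.0 and bedtools 2.26.0 on build mm10, per the submitters' processing notes. The sources used here do not say how the regions of the table were defined. Counts were fitted with edgeR 4.0.16 in R 4.3.3 (TMM factors, filterByExpr, group means over all 9 libraries, 6 residual degrees of freedom, quasi-likelihood F test, Benjamini-Hochberg over 157439 regions). CPM is on TMM-scaled totals. Start regions held 295 to 3444 counts per library, other regions as few as 1. The labels do not say that replicates are separate cultures, so p-values measure the spread between libraries, which may be technical.

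Genes and promoters came from RefSeq GRCm38.p6. A peak counted for a region if they shared at least 1 bp. Members and lists were chosen with earlier results of these data known. Named regions are the 10 called gene-end and 10 called other regions of smallest p per comparison (1 per gene). They also include the gene-end region of highest CPM and of smallest change per complex, and the region of smallest p for some other lists. Further regions of Ndufa9 and Ndufs4 and the start regions read against motifs were added after their values were seen. Deviations from the group mean were correlated between libraries with the same replicate number. The correlations were 0.117, 0.152 and 0.144 for NanogKO:Esrrb and NanogKO, and 0.146, 0.105 and 0.124 for both groups with Esrrb. For NanogKO:Esrrb:Nanog and NanogKO they were 0.136, 0.002 and 0.039. Libraries with different numbers were not compared in this way, and no label names a shared culture. The main fit is not paired: the replicate number entered only as the block among the alternatives. The fit was tested on simulated data. Alternatives were DESeq2 1.42.0, other scalings, no low-count filter, the 2 compared groups alone, a replicate block, other distances, ties left out, a 1.5-fold minimum, and each library left out.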

Additional observations from a re-analysis of the deposited data

How the results depend on the processing

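Of 1280 values of named regions under the alternatives (80 values), 1239 stayed on the same side of the threshold in the same direction, 32 were no longer called, 9 moved by more than their standard error, and none reversed. Scaling on gene-end regions moved the median of all regions by -0.11 between the groups with Esrrb, library totals moved it by -0.10 there, and the members' gene-end median then went from 0.04 to -0.07 and -0.06. In the comparison of both factors with NanogKO, 19 called gene-end regions became 6 with a 1.5-fold minimum, and the start regions ranged from 5 to 13 when 1 library was left out. With Esrrb alone, the 2 called start regions became 6 when scaled on gene-end regions, 4 with library totals, 5 with the 2 groups alone and 5 with the replicate block, and 2 to 4 with a library left out. When Nanog was added to Esrrb, the 7 gene-end calls became 4 with the 2 groups alone, 11 with the replicate block, 11 with gene ends taken as 2 kb, 3 with a 1.5-fold minimum and 2 to 11 with a library left out (2 without NanogKO:Esrrb replicate 2, 4 without NanogKO:Esrrb:Nanog replicate 1 or 2, 11 without its replicate 3). The 36 calls of other regions became 22 with a 1.5-fold minimum and 21 to 35 with a library left out. The 3 start calls became 5 with DESeq2, 5 when scaled on gene-end regions, 5 with library totals, 1 with the 2 groups alone, 7 with the replicate block and 0 to 8 with a library left out. The 5 lower Ndufa9 regions became 3 with the 2 groups alone and 1 to 6 with a library left out. The replicate block changed no other count by over 1.5 times, and the cause of these changes was not tested. Low counts limit the other regions most, with standard errors of up to 0.53.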
